A study of Homo sapiens with 9 samples.

Results

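Levels of 6 genes, GNMT, OTC, PTPRD, MRAP, NFIX and LOC731992, were followed across 9 Illumina arrays of liver tumours grown from the human hepatocellular carcinoma line Hep3B. The 6 were picked by symbol because their levels had been seen to go up and down together between arrays whatever the treatment. They were represented by 8 of the 43906 named probes and were 6 of the 15387 genes past the filter on dim probes (detection p under 0.05 on at least 3 arrays). Because the same arrays chose them, their spread and their likeness to each other are given as descriptions, with no test.

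Hep3B cells were implanted in the livers of Nod/Scid mice, an immunodeficient strain that keeps its own liver, vessels and myeloid cells, and grew for about 5 weeks. Total RNA was taken from whole tumours 24 hours after 1 intravenous injection. The groups were MRX34, liposomes carrying a synthetic mimic of miR-34a (3 arrays), empty liposomes, the carrier without the mimic (3 arrays), and dilution buffer (3 arrays). All share the cell line and the host. The labels do not say whether each array came from its own animal, so a p-value here reflects only how far these samples spread, which may be technical. On a human array, RNA of tumour cells and RNA of the mouse host that binds the same probe cannot be told apart, nor can fewer cells of a type and less RNA per cell.

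GNMT encodes glycine N-methyltransferase, a liver enzyme that uses up S-adenosylmethionine and so buffers the methyl groups of the cell. OTC encodes ornithine transcarbamylase, the mitochondrial urea cycle enzyme that makes citrulline. Both belong to the amino acid metabolism for which mature hepatocytes are known. PTPRD is a receptor-type tyrosine phosphatase of the LAR group, best known at nerve cell contacts. MRAP is the accessory protein that brings the corticotropin receptor MC2R to the surface of adrenal cells. NFIX is a transcription factor of the nuclear factor I family. LOC731992 is a placeholder symbol of the array design that has no entry in the annotation used here, so no role is given to it.

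The start-site windows of the 2 liver enzymes are shown because these are the 2 of the 6 with a well known hepatocyte role and their levels moved together. MRAP and LOC731992 had no window in the table. Each window runs from 250 bases before to 50 bases after an annotated start in RefSeq (GRCh38.p14). Capitals mark any match, on either strand, to these letters: GTTAAT of HNF1, TGTTTAC of FOXA, CAAAGTCCA of HNF4 and its core AAGTCCA, TTGCNNAA of C/EBP, TTGGCA of nuclear factor I, TATAAA, and CCAAT. The palindromic nuclear factor I site was searched too (0.0285% of all windows hold it). The HNF4 core lies inside the longer HNF4 letters, and TTGGCA can overlap CCAAT read on the other strand.
GNMT, chr6:42960504-42960803, plus strand: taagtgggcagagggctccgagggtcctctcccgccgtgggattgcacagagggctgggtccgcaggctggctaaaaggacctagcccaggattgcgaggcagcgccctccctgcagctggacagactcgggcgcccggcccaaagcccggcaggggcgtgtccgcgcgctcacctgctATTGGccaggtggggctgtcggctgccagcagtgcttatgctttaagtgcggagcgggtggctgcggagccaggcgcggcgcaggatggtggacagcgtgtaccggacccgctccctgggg
OTC, chrX:38352354-38352653, plus strand: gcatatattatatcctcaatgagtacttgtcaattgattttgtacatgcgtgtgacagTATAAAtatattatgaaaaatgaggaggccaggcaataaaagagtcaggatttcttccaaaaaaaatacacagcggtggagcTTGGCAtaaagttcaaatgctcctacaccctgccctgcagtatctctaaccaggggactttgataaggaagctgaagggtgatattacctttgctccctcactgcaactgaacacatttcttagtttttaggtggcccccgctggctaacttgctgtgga

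The GNMT window held 1 match, the reverse letters of CCAAT beginning 71 bases before the start, and 34.6% of 35116 windows hold that motif. The OTC window held TATAAA beginning 192 bases before the start (11.5% of windows) and TTGGCA beginning 110 bases before it (12.5%). The windows differ in base composition, with 69.3% G and C for GNMT, 41.7% for OTC and a median of 58.7% over all windows. The observed over expected ratio of CpG was 0.676 for GNMT and 0.231 for OTC, against a median of 0.579. The table also held 3 windows of PTPRD and 5 of NFIX. Of these, 1 PTPRD window held the HNF1 letters (6.88% of all windows) beside CCAAT, and the others held CCAAT or no match. The other letters are held by 3.42% (FOXA), 0.384% (HNF4), 3.39% (HNF4 core) and 10.5% (C/EBP) of all windows. No motif of the set was found in both the GNMT and the OTC window.

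The arrays differed in brightness. Mean background-subtracted intensity was 323 to 512 in MRX34, 163 to 491 in empty liposomes and 249 to 616 in dilution buffer, and 13690 to 20459 named probes lay above background. Empty liposomes 1 stood apart along the first principal component (40.4% of variance) with a score of 85.6, against -45.6 to 15.3 for the other arrays. Levels below are log2 intensities after background correction, an offset of 16 and quantile normalization, unless deposited intensities are named. They are compared between arrays for 1 probe at a time, not between genes.

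GNMT was above background on all 9 arrays. RefSeq also lists a read-through transcript, CNPY3-GNMT, which 1 GNMT probe may not tell apart from GNMT. Its deposited intensity was 3660, 1257 and 263 in MRX34, 24989, 5578 and 3055 in empty liposomes, and 344, 1706 and 36726 in dilution buffer (arrays 1, 2 and 3 of each group). Dilution buffer thus held both the brightest array and the next to dimmest one, and the 3 groups overlapped. The brightest value lay near the top of the intensity scale (47789), which leaves little room above it. Log2 levels averaged 9.87 ± 2.13 in MRX34, 12.86 ± 1.58 in empty liposomes and 11.31 ± 3.58 in dilution buffer (SD, n = 3 each). Within 1 treatment the highest array exceeded the lowest 18.7-fold in MRX34, 8.35-fold in empty liposomes and 134-fold in dilution buffer.

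OTC, measured on all 9 arrays, followed the same course. Its deposited intensity was 1240, 1022 and 306 in MRX34, 6015, 2926 and 1135 in empty liposomes, and 394, 769 and 11455 in dilution buffer. Empty liposomes 1 and dilution buffer 3 were again the bright arrays, and MRX34 3 and dilution buffer 1 the dim ones. Log2 levels averaged 9.32 ± 1.26 in MRX34, 11.36 ± 1.25 in empty liposomes and 10.42 ± 2.70 in dilution buffer (SD, n = 3 each).

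PTPRD had 2 probes. The brighter one, above background on all 9 arrays, read 445, 335 and 111 in MRX34, 2426, 1064 and 428 in empty liposomes, and 152, 296 and 4142 in dilution buffer. The dimmer one was above background on 3 arrays, dilution buffer 3 (298), empty liposomes 1 (144) and empty liposomes 2 (130), which are the 3 brightest arrays of the first probe. Both probes of this phosphatase therefore pointed to the same arrays, though the second could be read only where the first was high. On the log2 scale the brighter probe averaged 7.33 ± 1.69 in MRX34, 9.88 ± 1.36 in empty liposomes and 8.71 ± 2.94 in dilution buffer (SD, n = 3 each).

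MRAP also had 2 probes, and they did not behave alike. The first read 135, 85.5 and 83.9 in MRX34, 720, 193 and 145 in empty liposomes, and 99.6, 142 and 1481 in dilution buffer. It lay above background on 1 MRX34 array, 3 empty liposome arrays and 2 dilution buffer arrays. The second probe was above background on 0 of 9 arrays and stayed between 70.8 and 94.2, so the accessory protein's pattern rests on 1 probe. Log2 levels of the first probe averaged 5.18 ± 0.72 in MRX34, 7.49 ± 1.64 in empty liposomes and 7.23 ± 2.84 in dilution buffer (SD, n = 3 each). The corticotropin receptor MC2R, which MRAP serves in the adrenal, passed the filter on dim probes with none of its probes, and the only other melanocortin gene that did was MC1R, the melanocyte receptor (log2 levels from 6.42 to 7.27).

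NFIX read 381, 303 and 166 in MRX34, 1797, 1106 and 413 in empty liposomes, and 167, 461 and 4525 in dilution buffer, above background on all 9 arrays. LOC731992 read 359, 197 and 104 in MRX34, 8089, 1655 and 791 in empty liposomes, and 109, 560 and 10230 in dilution buffer, also above background throughout. For these 2 genes and MRAP every MRX34 array was dimmer than every empty liposome array, as for 5.41% of all genes. Dilution buffer overlapped both groups. Log2 levels of LOC731992 averaged 6.79 ± 1.49 in MRX34, 11.03 ± 1.77 in empty liposomes and 9.19 ± 3.99 in dilution buffer (SD, n = 3 each). Those of NFIX averaged 7.57 ± 0.89 in MRX34, 9.73 ± 1.19 in empty liposomes and 9.10 ± 2.81 in dilution buffer (SD, n = 3 each).

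**Figure D1:**
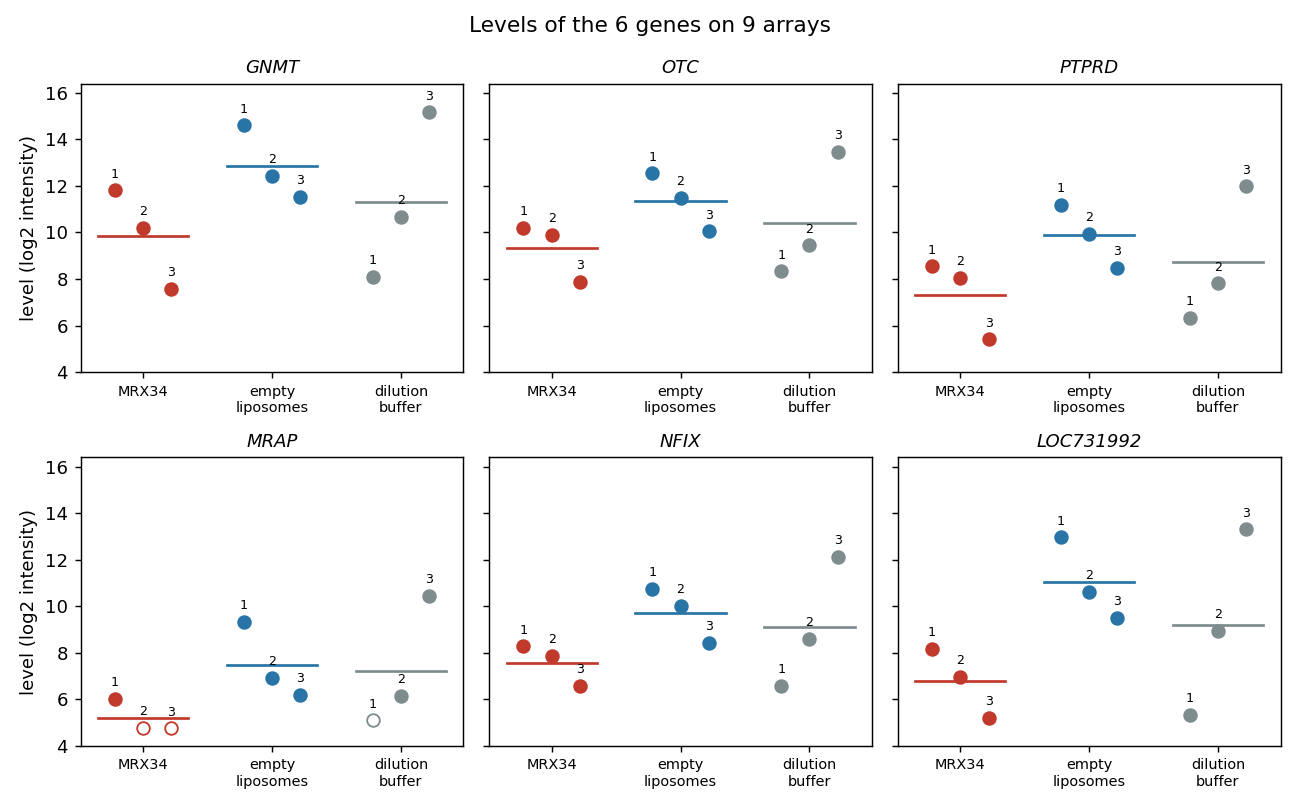
Log2 intensity of the 6 genes (vertical axis) in MRX34, empty liposomes and dilution buffer, 1 point per array with its replicate number, the group mean as a line, and hollow points for values not above background. In every panel dilution buffer 3 is highest, followed by empty liposomes 1, and MRX34 3 is lowest. MRX34 3 is nearly level with dilution buffer 1 for NFIX and is not above background for MRAP.

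From the lowest to the highest array, the log2 level spanned 8.10 for LOC731992, 7.58 for GNMT, 6.59 for PTPRD, 5.60 for OTC and 5.55 for NFIX, which is 274-fold, 191-fold, 96.1-fold, 48.6-fold and 46.8-fold. The span of LOC731992 starts from its MRX34 3 value, which was barely above background. MRAP was at least 38.0-fold higher in dilution buffer 3 than in MRX34 3, where it was not above background. A typical gene among the 15387 spanned 1.13 log2 units (2.19-fold). LOC731992 and GNMT had the widest and second widest ranges of all genes tested. Which of them was wider depended on the background correction. With an offset of 50 GNMT spanned 7.34 and LOC731992 7.16, and with no background correction 7.12 and 6.62. In the table not normalized between arrays LOC731992 stayed wider (8.31 against 7.28). Among the 15381 other genes, 5 (0.0325%) had a range at least as wide as that of NFIX. Among them were the pseudogene CYCSP52 (47.9-fold) and the placeholders LOC340274, LOC100133551 and LOC100130562, named here after their values were seen.

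The order of the arrays was nearly the same in the 6 genes. Dilution buffer 3, empty liposomes 1 and empty liposomes 2 took the 3 highest places, in that order, for each gene, and MRX34 3 ranked last for each. The last place was a near tie with dilution buffer 1 for NFIX (6.572 against 6.577 log2 units). For MRAP it was a background value. Dilution buffer 1 was next to last for 5 genes and 1 place higher for MRAP, where it and MRX34 2 were both not above background. The middle places exchanged between genes. MRX34 1 had rank 4 for GNMT, OTC and PTPRD but rank 6 for MRAP, NFIX and LOC731992, and dilution buffer 2 moved between ranks 4 and 7. For groups, empty liposomes averaged highest and MRX34 lowest for each gene, and these group means lay closer together than the arrays of dilution buffer did.

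Over 9 arrays, the 15 pairs among the 6 genes had Pearson's r from 0.92 to 1.00 and Spearman's rho from 0.88 to 1.00. The closest pair was OTC and PTPRD (r = 1.00, rho = 1.00), and the loosest was GNMT and MRAP (r = 0.92). After group means were subtracted, r ran from 0.91 to 1.00, so the likeness lay within treatments. Without dilution buffer 3 and empty liposomes 1 it ran from 0.79 to 0.99 over 7 arrays, lowest for OTC and MRAP. The points of these correlations share RNA extract, array and normalization, and the genes were picked for this likeness, so no p is given.

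**Figure D2:**
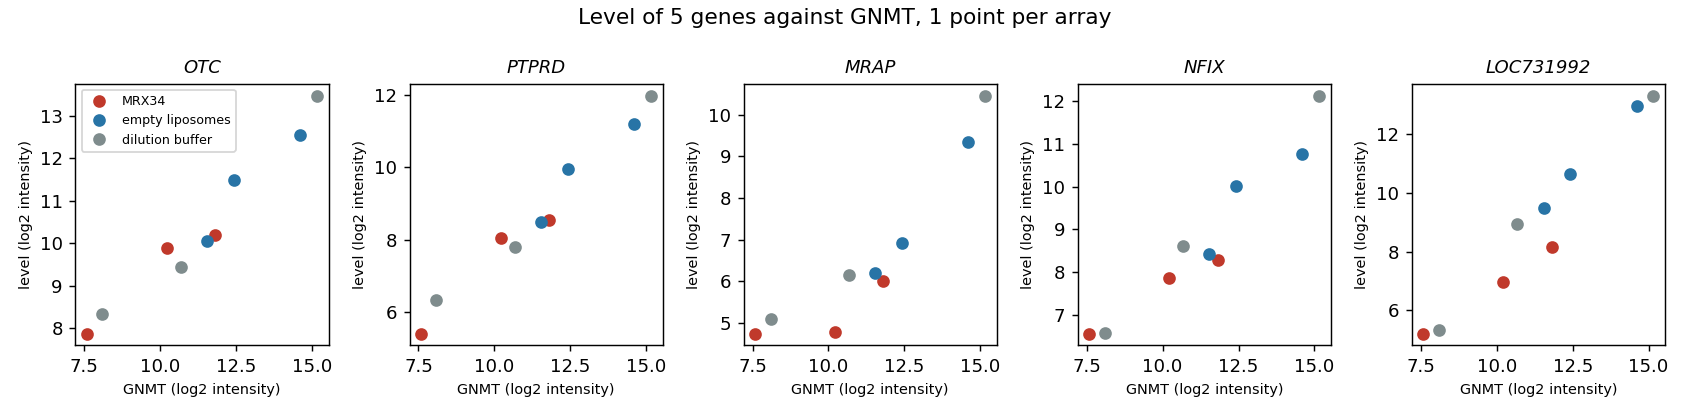
Log2 intensity of OTC, PTPRD, MRAP, NFIX and LOC731992 (vertical axes) against that of GNMT (horizontal axis), 1 point per array, coloured by group. Arrays of all 3 groups lie along 1 rising course in each panel.

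The share of a gene's variance that lay between the 3 treatment groups was 23.0% for OTC, 25.3% for GNMT, 26.8% for PTPRD, 26.9% for NFIX, 29.8% for MRAP and 39.0% for LOC731992. The median over all 15387 genes was 28.9%. Most of the spread of the 6 genes was therefore between arrays of the same group.

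The deposited table that was not normalized between arrays gave the same genes wide ranges too. There the lowest and highest background-subtracted intensities were 191 and 29826 for GNMT (156-fold), 238 and 6712 for OTC (28.2-fold), 26.1 and 2185 for PTPRD (83.7-fold), 82.1 and 2392 for NFIX (29.1-fold) and 19.1 and 6071 for LOC731992 (318-fold). The 19.1 of LOC731992 is its MRX34 3 value, barely above background. Dilution buffer 3 stayed highest for each gene. For NFIX, MRX34 3 (85.9) was not lowest and lay above dilution buffer 1 (82.1), and MRX34 2 (236) lay above empty liposomes 3 (232). For OTC, PTPRD and NFIX, empty liposomes 2 (3228, 1067 and 1114) lay above empty liposomes 1 (2006, 729 and 528), opposite to the normalized order. Dilution buffer 3 and empty liposomes 1, the highest arrays after normalization, were also the 2 dimmest arrays overall (mean intensity 249 and 163) and had the fewest probes above background (16508 and 13690). The part of array brightness in the pattern was not tested. Without any normalization between arrays, r of each gene with the mean of the other 5 was 0.92 to 0.97.

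MRX34 against both controls set the liposomes with the mimic against the mean of the 2 control groups. Dilution buffer holds no liposomes, so mimic and carrier are not separated in this comparison. All 6 genes averaged lower in MRX34, with differences from -3.33 log2 units for LOC731992 (SE 1.49) to -1.57 for OTC (SE 1.05) and a median of -2.07, against a median of 0.04 over all genes, of which 45% were lower. None passed limma's moderated test, with adjusted p from 0.447 to 0.575 over 15387 genes, of which 0 (0%) were called and 1711 (11.1%) had an unadjusted p under 0.05. The MRX34 and control arrays overlapped for each of the 6, while 2.11% of all genes lay lower without overlap. The 6 genes vary together and are not 6 independent observations.

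MRX34 against empty liposomes, the mimic against its own carrier, gave larger mean differences for the 6 genes than the other comparisons did. All 6 were lower in MRX34, as were 45% of all genes. The differences were -4.24 for LOC731992 (SE 1.72), -2.99 for GNMT (SE 1.66), -2.55 for PTPRD (SE 1.36), -2.31 for MRAP (SE 1.26), -2.16 for NFIX (SE 1.19) and -2.04 for OTC (SE 1.21). For LOC731992, NFIX and MRAP all MRX34 arrays lay below all empty liposome arrays, and for GNMT, OTC and PTPRD, MRX34 1 exceeded empty liposomes 3. For NFIX this did not hold without normalization between arrays, where MRX34 2 (236) exceeded empty liposomes 3 (232). Between arrays of the same number, MRX34 was lower in 3 of 3 pairs for each of the 6 genes, as it was for 16.6% of all genes. The labels state no pairing, and the deviations of these arrays from their group means had r of 0.28 to 0.49. By limma the adjusted p was 0.522 to 0.593, and 0 of 15387 genes (0%) were called, 1439 (9.35%) having an unadjusted p under 0.05. MRAP was above background on 1 of the 3 MRX34 arrays, and on the other 2 its level is a background value.

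MRX34 against dilution buffer gave differences from -2.41 for LOC731992 (SE 1.72) to -1.10 for OTC (SE 1.21), with limma adjusted p from 0.584 to 0.770. All 6 were lower, against 45.9% of all genes, and for each the arrays overlapped, while 8.3% of all genes lay lower without overlap. Again 0 of 15387 genes (0%) were called, and 1560 (10.1%) had an unadjusted p under 0.05. The sign rested on 1 array for the 2 liver enzymes and PTPRD. Without dilution buffer 3, GNMT was at 0.48, OTC at 0.43 and PTPRD at 0.26, each then above 0, and MRAP, NFIX and LOC731992 were at -0.44, -0.023 and -0.35.

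Empty liposomes were also set against dilution buffer, to see the carrier without the mimic. All 6 genes averaged higher in empty liposomes, and for each of them the arrays overlapped. Of all genes, 53.1% averaged lower, and 5.55% lay lower without overlap. Differences ran from 0.26 for MRAP (SE 1.26) to 1.84 for LOC731992 (SE 1.72). By limma the adjusted p was 0.827 to 0.971, and 0 of 15387 genes (0%) were called, 887 (5.76%) having an unadjusted p under 0.05. Without dilution buffer 1, all 6 differences were below 0, from -0.82 for MRAP to -0.021 for PTPRD. MRAP was also below 0 without dilution buffer 2 (-0.29) or empty liposomes 1 (-0.65). The 3 comparisons with MRX34 use the same MRX34 arrays and those with controls share them in turn, so the 4 sets of differences are not independent.

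**Figure D3:**
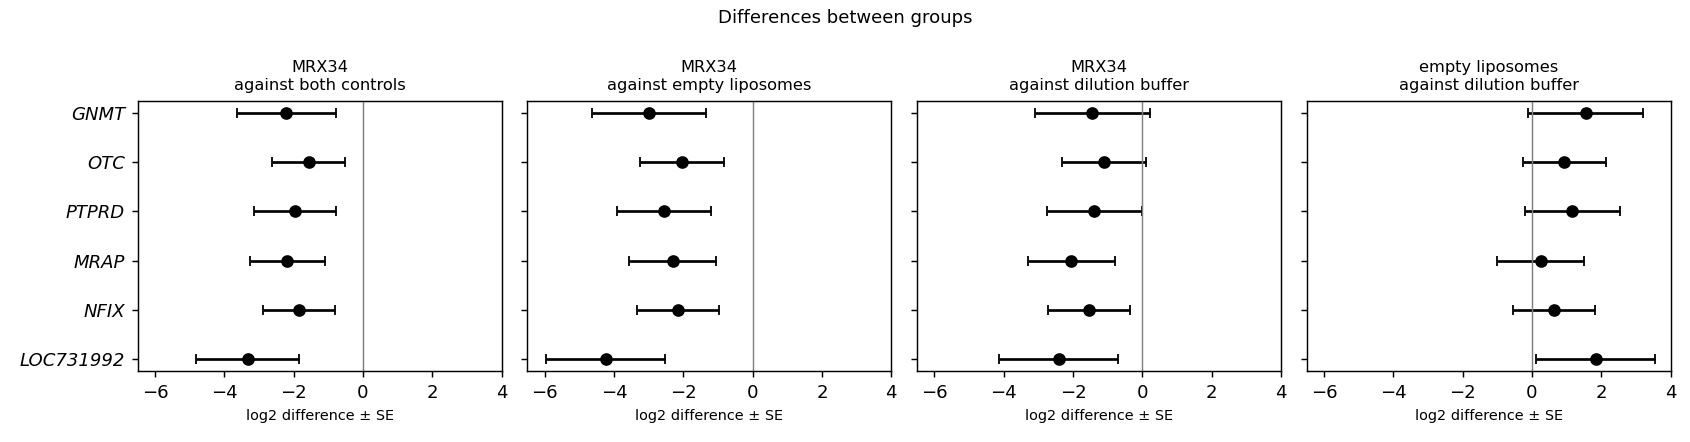
Differences between groups for the 6 genes (horizontal axes, log2 units, first group minus second), with bars of 1 standard error from the fit on 9 arrays. The differences with MRX34 on top are below 0 and those of empty liposomes over dilution buffer are above 0, with standard errors of 1.03 to 1.72, and none passed the test.

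The neighbours of OTC in the urea cycle were set against the mean z-scored pattern of the 6 genes over the 9 arrays. Of 10 urea cycle genes listed, 9 passed the filter, and 0 of the 8 besides OTC had r over 0.7, against 5.1% of all other genes. For 8 genes, 0 lies near that share. The median r of the 8 was -0.22, and that of all other genes -0.13. CPS1, carbamoyl phosphate synthetase, which feeds OTC, read 11.63, 12.15 and 11.19 log2 units in MRX34, 11.22, 12.82 and 12.45 in empty liposomes, and 11.22, 11.79 and 11.53 in dilution buffer. It was not high on dilution buffer 3 or empty liposomes 1, though without them its r was 0.87. ASS1, which joins citrulline to aspartate, spanned only 0.68 log2 units over the 9 arrays (r = 0.11, or 0.67 without those 2 arrays). ARG1, the arginase that releases urea, was lowest where OTC was highest, at 8.66 in empty liposomes 1 and 8.90 in dilution buffer 3, against 9.29 to 10.77 on the other arrays, where its r was 0.27.

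The methionine and one-carbon list around GNMT gave a similar picture. Of 25 genes, 23 passed the filter, and 0 of the 22 besides GNMT had r over 0.7 (median -0.24), against 5.1% of all other genes. MAT1A, the liver enzyme that makes the S-adenosylmethionine GNMT uses, read 7.55, 7.09 and 7.15 in MRX34, 6.22, 7.37 and 7.96 in empty liposomes, and 7.51, 7.25 and 6.12 in dilution buffer, with its lowest values on the 2 arrays where GNMT was highest (r = -0.68, or 0.32 over the other 7 arrays). BHMT, which remakes methionine from betaine, had r of -0.65 (-0.03 over the other 7 arrays), and PIPOX, the peroxisomal sarcosine oxidase, -0.52 (0.48 over the other 7 arrays). The highest r in the list belonged to DMGDH, dimethylglycine dehydrogenase (0.57), and MTR, methionine synthase (0.57). Over the other 7 arrays these were 0.11 and 0.75.

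In the nuclear factor I family, NFIB stood beside NFIX. NFIB read 8.66, 9.14 and 8.22 in MRX34, 10.30, 9.98 and 8.62 in empty liposomes, and 8.10, 8.72 and 10.98 in dilution buffer, with r of 0.94 (0.81 over the other 7 arrays). Its range was 2.88 log2 units, narrower than the 5.55 of NFIX. NFIA (r = -0.49) and NFIC (r = -0.30) were not high on dilution buffer 3 or empty liposomes 1. All 4 members of the family passed the filter.

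Of 17 genes listed with the LAR-type phosphatases and their binding partners, 9 passed the filter. Of the 8 besides PTPRD, 1 had r over 0.7, as did 5.1% of all other genes. The 1 was PTPRS, a close relative of PTPRD (r = 0.79), which was above background on 4 arrays and had r of -0.16 without dilution buffer 3 and empty liposomes 1. PTPRF, the remaining receptor of the LAR group, was measured on all 9 arrays and spanned 0.72 log2 units (r = 0.43, or 0.85 over the other 7 arrays).

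Among 38 enzymes and transporters of the adult hepatocyte, 24 passed the filter. Of these, 3 had r over 0.7 (5.1% of all other genes did), 2 had r under -0.7 (6.77% of all other genes did), and the median was -0.51. HAO1, the peroxisomal glycolate oxidase, read 7.82, 8.30 and 7.10 in MRX34, 10.44, 8.84 and 7.21 in empty liposomes, and 6.47, 7.61 and 11.02 in dilution buffer, a 23.4-fold span (r = 0.93, or 0.74 over the other 7 arrays). The bile salt and drug carrier SLCO1B1 (r = 0.71) had r of 0.28 without dilution buffer 3 and empty liposomes 1. The other 21 included UROC1, the histidine-degrading urocanate hydratase (7.63-fold, r = 0.39), and the alcohol dehydrogenase ADH1A (6.07-fold, r = -0.39). UROC1 was above background on 6 arrays. CYP3A4, CYP2C8, PCK1, SLC10A1 and ADH1B, all abundant in adult liver, were among the 14 that did not pass the filter.

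The lists of hepatocyte plasma proteins and Hep3B tumour markers had no member with r over 0.7, which 5.1% of all other genes had. Of 20 hepatocyte plasma proteins, all past the filter, 0 had r over 0.7, the highest being FGB, fibrinogen beta (r = 0.60). ALB, albumin, spanned 0.34 log2 units near the top of the scale (r = -0.04), where there is little room for a difference. Apolipoprotein C3 (APOC3) spanned 2.11 units with r of -0.38. TTR, the thyroxine carrier transthyretin, was the 1 member with r under -0.7 (-0.93). Of 8 Hep3B tumour markers, 0 had r over 0.7, the highest being the imprinted RNA H19 (r = 0.55). AFP, alpha-fetoprotein, spanned 0.30 units (r = -0.30), GPC3, the proteoglycan glypican-3, 0.94 (r = -0.31), and IGF2, the fetal growth factor, 2.83 (r = 0.41). AFP and GPC3 were above background on every array, which fits the label of a Hep3B tumour.

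Of 16 hepatocyte transcription factors, 15 passed the filter, 2 with r over 0.7 (5.1% of all other genes) and 3 under -0.7 (6.77% of all other genes). CEBPB, the acute-phase factor, read 11.11, 10.94 and 10.43 in MRX34, 12.83, 11.98 and 11.84 in empty liposomes, and 10.86, 11.03 and 13.23 in dilution buffer, the same array order as the 6-gene mean (r = 0.97, rho = 1.00). The bile acid receptor NR1H4 had r of 0.80, or -0.07 without dilution buffer 3 and empty liposomes 1. PPARA, the fatty acid receptor, had r of -0.82 (-0.84 over the other 7 arrays), and its lowest value, on empty liposomes 1, was not above background.

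**Figure D4:**
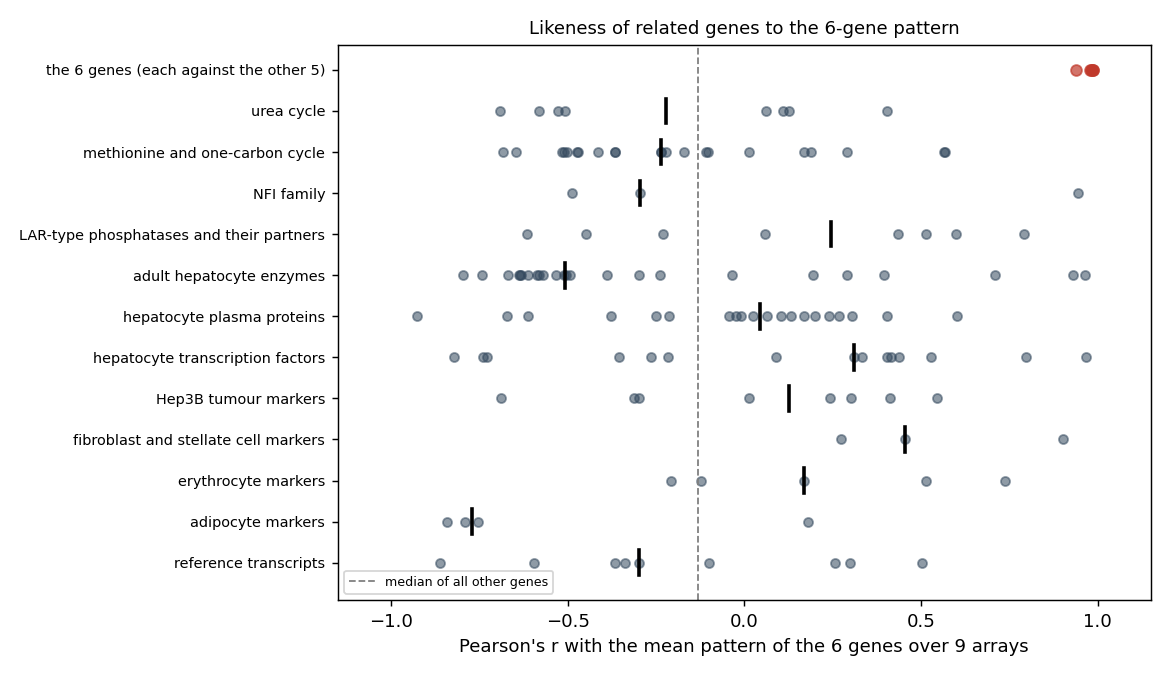
Pearson's r over 9 arrays (horizontal axis) of single genes with the mean z-scored pattern of the 6 genes, by gene list, with list medians as black bars and the median of all other genes (-0.13) as a dashed line. The 6 genes, each set against the other 5, lie at 0.94 to 0.99, and were picked for this likeness. Most genes of the same pathways lie below 0.7, as do most of all other genes, of which 5.1% lie over it.

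Among markers of other cells, DCN, the matrix proteoglycan decorin of fibroblasts, moved with the 6 genes. It read 7.30, 5.26 and 5.80 in MRX34, 9.67, 7.75 and 8.37 in empty liposomes, and 5.67, 7.28 and 9.40 in dilution buffer (r = 0.90). Of 8 fibroblast and stellate cell markers, 3 passed the filter, while COL1A2, COL3A1, LUM, ACTA2 and THY1 did not. Besides DCN, those past it were PDGFRB (r = 0.45) and COL1A1 (r = 0.27, above background on 3 arrays). Without dilution buffer 3 and empty liposomes 1, PDGFRB had r of 0.73 and COL1A1 of -0.51. The summed linear level of the 3 markers past the filter was 1024 to 1241 in MRX34, 1314 to 2222 in empty liposomes and 850 to 1604 in dilution buffer. The part of these cells in the pattern was not tested.

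Markers of erythrocytes (5 of 7 past the filter) had a summed level of 14636 to 33562 in MRX34, 23739 to 32025 in empty liposomes and 13175 to 32996 in dilution buffer. The 1 with r over 0.7, which 5.1% of all other genes had, was ALAS2, the red cell heme synthesis enzyme (0.74, or 0.22 over the other 7 arrays). ALAS2 was above background on 4 arrays. Macrophage (5 of 8), cholangiocyte (5 of 6), endothelial (1 of 8), adrenal cortex (3 of 7) and neuron (3 of 6) lists had 0 genes with r over 0.7, and GAP43, RBFOX3 and SYP of neurons and CYP11B1, CYP17A1 and HSD3B2 of the adrenal did not pass the filter. Of 9 reference transcripts, 0 had r over 0.7 and 1 had r under -0.7. Of 4 adipocyte genes past the filter (6 listed), 3 had r under -0.7, against 6.77% of all other genes. LEP, leptin, had r of 0.18. Without dilution buffer 3 and empty liposomes 1, none of the 3 was under -0.7. There r was -0.63 for CIDEC, -0.56 for PLIN1 and -0.31 for PPARG. PLIN1 was above background on 7 arrays. CIDEC, the lipid droplet protein, had r of -0.75 and read 9.44, 8.83 and 9.86 in MRX34, 5.75, 7.79 and 7.62 in empty liposomes, and 8.50, 7.88 and 7.52 in dilution buffer. Its 5.75 on empty liposomes 1 was not above background, which began at 6.03 on that array.

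Among the 15381 other genes, those most like the 6-gene mean over the 9 arrays were taken in order of r, passing over the pseudogene CYCSP52 (r = 0.99) and HIST1H2BE (r = 0.98, 21.7-fold), a histone gene whose older symbol the annotation did not match. The 12 kept had r of 0.97 to 0.99. PTPRB, an endothelial receptor phosphatase, spanned 20.2-fold (r = 0.99), and PGK2, the phosphoglycerate kinase known from testis, 35.4-fold (r = 0.99). PGK2 read 6.94, 7.06 and 5.36 in MRX34, 9.54, 8.28 and 6.95 in empty liposomes, and 5.41, 6.71 and 10.50 in dilution buffer. HAMP, the iron hormone hepcidin, spanned 31.1-fold, FAAH, which degrades fatty acid amides, 29.9-fold, and CARNMT1, the carnosine methyltransferase, 18.9-fold. Genes with narrower ranges took a similar course. They were the electron carrier ETFA (7.48-fold), the lysosomal membrane protein LAMP2 (7.33-fold), CEBPB (6.93-fold), the repressor SKI (5.72-fold), IRF2BPL (5.46-fold), the NF-kB inhibitor NFKBIA (4.49-fold) and TM9SF1 (2.45-fold). In all, 141 of 15381 other genes (0.917%) had r over 0.9, and in 898 (5.84%) dilution buffer 3 and empty liposomes 1 both lay above the other 7 arrays.

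The 6 genes least like the pattern (1 placeholder passed over) had r of -0.97 to -0.94. AOAH, which deacylates bacterial lipopolysaccharide, was above background on 5 arrays. The ribosomal protein RPS12 spanned 1.31-fold near the top of the scale, the sulfotransferase SULT1C2 1.87-fold, the acyltransferase AGPAT5 2.65-fold, the Arf regulator ACAP2 1.87-fold and SPAG4 5.76-fold. On dilution buffer 3 and empty liposomes 1, SPAG4 was not above background, and its level there is a background value. Fewer genes reached r under -0.9 than over 0.9, namely 36 (0.234%).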

How the data were processed

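One deposited table held intensity values that were already quantile normalized and not background-subtracted, as read from its 9 equal distributions, and per the file headers a detection p-value beside each. The deposited series table held background-subtracted intensity values, not normalized between arrays. The 2 tables ranked the 47230 shared probes of each array alike (Spearman's rho 1.00). The scanner software is not given in the sources used here.

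The first table was background-corrected by normexp from the detection p-values (offset 16), quantile normalized again and log2 transformed, in limma 3.58.1 under R 4.3.3. Probes were named by the deposited symbols, updated through RefSeq (GRCh38.p14), which matched 27035 directly and 4626 by synonym; 12245 kept their name. Unnamed probes (3270), spike-ins (92) and date-like symbols (54) were left out. The brightest probe above background on at least 3 arrays stood for a gene. A limma model with 1 mean per group used all 9 arrays, with Benjamini-Hochberg adjustment over 15387 genes; it was tested on simulated data. Arrays limit the precision by their number.

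Named genes were the 6 with all their probes, the 12 most and 6 least like their mean z-scored level (placeholders and pseudogenes passed over), up to 4 per list by range, and AFP, GPC3 and ALB; list members beyond that were named after their values were seen. Some list members are not reported here. Members and lists were chosen with earlier results of these data known. Alternatives changed the background correction, offset, table, normalization, filter, probe rule, variance model, weights, pairing and arrays.

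Same-numbered arrays of empty liposomes and MRX34 deviated together from their group means over all genes (r = 0.44, 0.49 and 0.28), and those of other group pairs did not in every pair (-0.32 to 0.30). The labels state no pairing.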

Additional observations from a re-analysis of the deposited data

How the results depend on the processing

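None of the 6 genes was called in the fit as reported. LOC731992 was called with array weights in MRX34 against both controls (-3.74, adjusted p = 0.0349) and against dilution buffer (-3.15, adjusted p = 0.0379) by limma, where the weights called 1465, 267, 2828 and 6 genes in MRX34 against both controls, against empty liposomes, against dilution buffer, and in empty liposomes against dilution buffer. The count of called genes, 0 as reported, was 2 with detection on all 9 arrays, 2 with no correction of the background and 2 with normexp of offset 50 that did not use detection p-values (each in MRX34 against both controls), and with a trended and robust variance 1 against both controls and 3 against empty liposomes. Leaving out 1 array at a time gave 0 to 1 against both controls and 0 to 4 against empty liposomes. The replicate block changed no call of the 6 genes, and on the 6 arrays of MRX34 and empty liposomes, an alternative chosen after seeing the data, it gave LOC731992 -4.24 (adjusted p = 0.0750) and the other 5 an adjusted p of 0.106 to 0.222, with 0 genes called. Directions were kept in all alternatives for MRX34 against both controls and against empty liposomes. Against dilution buffer, leaving out 1 array gave -3.05 to 0.48 for GNMT, -2.14 to 0.43 for OTC and -2.57 to 0.26 for PTPRD, and without both dilution buffer 3 and empty liposomes 1, also chosen after seeing the data, the 3 were at 0.48, 0.43 and 0.25. In empty liposomes against dilution buffer, leaving out 1 array gave -0.060 to 3.47 for GNMT, -0.10 to 2.47 for OTC, -0.021 to 2.81 for PTPRD, -0.82 to 1.87 for MRAP, -0.63 to 2.14 for NFIX and -0.092 to 3.89 for LOC731992. MRAP was there at -0.019 with no correction of the background and -0.10 in the table without normalization between arrays. Over all alternatives the adjusted p of LOC731992 was 0.0349 to 0.996 against both controls, 0.0750 to 0.840 against empty liposomes and 0.0379 to 1 against dilution buffer. The lowest p against both controls and against dilution buffer came with array weights, and the highest with the table not normalized between arrays. The cause of these changes was not tested. The r of a gene with the mean of the other 5 stayed between 0.87 and 0.99 in all alternatives, and MRAP, dim on 3 arrays, had no value with detection on all 9.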

Other observations

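Per log2 unit of change in the mean of the other 5 genes, LOC731992 moved by 1.41 units and GNMT by 1.19, PTPRD by 0.952, MRAP by 0.839, NFIX by 0.808 and OTC by 0.80. These are slopes over 9 arrays, given as a description. That of LOC731992 includes its MRX34 3 value, which was barely above background.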
